A study of Mus musculus with 6 samples.

Results

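Respiratory complex I is the NADH dehydrogenase of the mitochondrial inner membrane, and its nuclear genes were compared between mice on a normal and on a high phosphate diet. The members are the protein-coding rows of the count table whose symbol is Nduf followed by a, b, c, s or v and a number, or Ndufaf followed by a number. They came to 43 of 47967 genes, of which 36 were subunit genes and 7 were assembly factor genes. The choice used symbols only, and no measured value.

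The study measured RNA by sequencing in gastrocnemius, a calf muscle made mostly of fast fibres, with 3 libraries per diet. The mice were C57BL/6 males, 20 to 24 weeks old, and no genetic change is named for either group. The control group ate a diet with 0.6% inorganic phosphate (0.9% in total) for 12 weeks, and the other group a diet with 2.0% inorganic phosphate (2.3% in total) for the same 12 weeks. The magnesium, calcium, potassium and sodium contents of both diets are given as equal. The labels number the libraries within a diet but do not say that each is a separate mouse, so every p-value here measures only the spread between these libraries, which may be technical.

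Complex I takes electrons from NADH, passes them along a chain of iron-sulfur clusters to ubiquinone, and pumps protons across the inner membrane. A peripheral arm in the matrix carries the redox centres, a membrane arm carries the pumps, and a shell of accessory subunits surrounds the conserved core. Assembly factors build and modify the modules and are absent from the finished enzyme. The core subunits of the membrane arm are encoded by mitochondrial DNA. The 7 mitochondrial complex I genes are listed at 0 counts in every library and give no value here.

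Library totals ran from 21856006 to 27474251 counts. Levels are given as CPM, counts scaled to a common library total with TMM factors (trimmed mean of M-values, which assumes that most genes do not differ). All 9 fast fibre markers were detected and took 7.21% to 8.84% of the counts on the normal diet and 11.5% to 14.3% on the high diet. By edgeR's quasi-likelihood test 6 of 9 fast fibre markers were higher on the high phosphate diet, 7 of 8 slow fibre markers were lower, and so were all 10 white adipocyte markers and all 8 fibroblast markers. Tnnc2, 1 of those 6, had only 46 to 152 counts per library. Its deposited FPKM, a level scaled for gene length and depth, was 7415 to 13490, so its counts and its call are uncertain. Of 9 macrophage markers 8 were lower and Cd163 was higher. White adipocyte markers fell from between 0.303% and 0.362% of counts to between 0.0474% and 0.0891%. Slow fibre markers went from between 0.282% and 0.397% to between 0.0841% and 0.125%, and macrophage markers from between 0.120% and 0.253% to between 0.0345% and 0.0505%. Normal phosphate replicate 2 stood apart, with 1.36% of its counts in fibroblast markers against 0.534% and 0.620% in the other normal libraries and 0.184% to 0.226% on the high diet. The 10 most abundant genes took 13.0% to 16.2% of counts on the normal diet and 21.5% to 24.0% on the high diet. The part of these shifts in the complex I values was not tested, and in whole tissue a change in the number of cells of a type and in the RNA per cell cannot be told apart.

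With TMM scaling, 10 of the 43 complex I genes were higher on the high phosphate diet and 0 were lower, at an adjusted p under 0.05 in edgeR's test over 15347 genes. Among them were the subunits Ndufs1, Ndufs3, Ndufa10, Ndufa12 and Ndufb5 and the assembly factors Ndufaf1, Ndufaf4, Ndufaf5 and Ndufaf6, and the 10 differences ran from 1.41-fold to 1.88-fold. Among all genes tested 49.3% were called, 23% higher and 26.3% lower, so the members' 23.3% called higher was near the share of all genes. No member was lower at an unadjusted p under 0.05. DESeq2 called 9 subunits and 4 assembly factors higher and 0 lower, where it called 19.5% of all genes higher and 19.7% lower. A positive log2 fold change was found in 42 of 43 members, and in 48.8% of all genes. This leaned on 1 library for the subunits. Without normal phosphate replicate 2, 10 of 36 subunits were negative, against 1 with all libraries, and their median was 0.14. None of the assembly factors was negative there, but their median fell as well, to 0.34, and Ndufaf5 was no longer called. The assembly factors held 4 of their 7 genes among the calls, and the subunits 6 of 36, which is 16.7%. The median log2 fold change was 0.29 for the subunits and 0.49 for the assembly factors, beside -0.02 for all genes tested.

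The direction of the subunits turned with the scaling. With library size alone in place of TMM, 0 subunits were higher and 7 were lower, their median was -0.18, and 30 of 36 had a negative log2 fold change. No subunit was higher there at an unadjusted p under 0.05, and 8 were lower. That scaling moved the median of all genes from -0.02 to -0.49, with 5.72% of genes called higher and 51.4% lower. Relative to the median of all genes, the subunits stood 0.30 higher with TMM and 0.32 higher with library size alone, and the assembly factors 0.51 and 0.52 higher. On the deposited FPKM values, which are scaled for gene length and depth, limma on log2(FPKM + 1) called 0 subunits higher and 5 lower, against 4.74% and 37% of genes. The medians there were -0.15 for the subunits and -0.02 for the assembly factors, beside -0.33 for all genes. Ndufaf6 was the member called higher under each of these scalings.

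**Figure D1:**
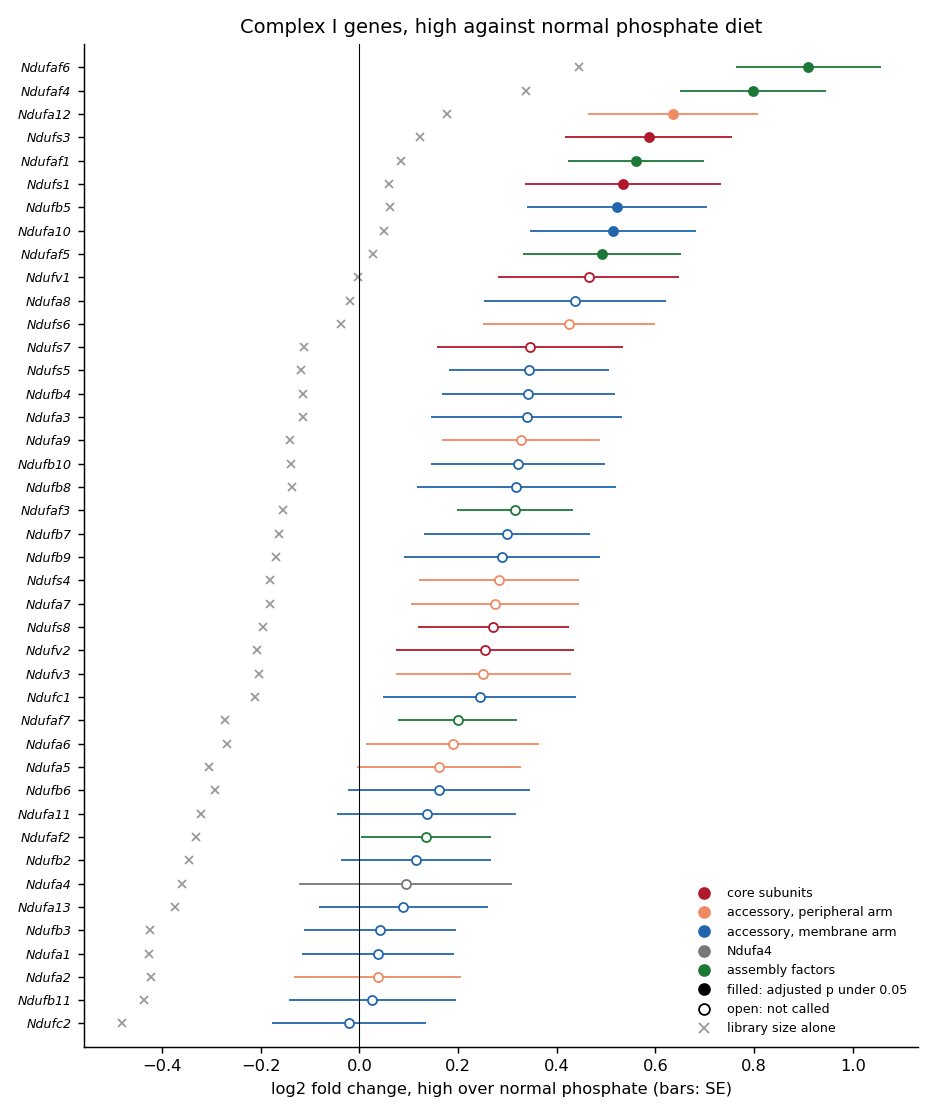
Log2 fold change of high over normal phosphate (x axis, bars show the standard error, n = 3 libraries per diet) for 42 of the 43 genes (y axis), coloured by role. Filled points passed an adjusted p under 0.05, and crosses give the same gene with library size alone, where most points lie below 0 and Ndufaf6 lies at 0.44.

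Per unit of length, the subunits were far more abundant than their assembly factors. The mean FPKM over the 6 libraries ran from 96.0 (Ndufa10) to 1235 (Ndufa4) for the subunits, with a median of 249. For the assembly factors it ran from 7.52 (Ndufaf7) to 31.5 (Ndufaf5), with a median of 14.7, so the ranges of the classes did not meet. FPKM is not steady for every gene: its ratio to the gene's share of the library total varied by more than 1.5-fold between libraries in 9 of the 43 members and in 21.5% of 9871 well-counted genes. Ndufb2 (7.89-fold), Ndufa11 (4.84-fold) and Ndufc1 (2.45-fold) varied most, and their FPKM levels are uncertain to that extent.

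The nuclear core subunits carry the flavin and the iron-sulfur clusters. By edgeR, 3 of 7 rose (42.9%, beside 23% of all genes) and 4 did not pass the test. The median over the 7 was 0.46. With library size alone none of the 7 was called in either direction, where 5.72% of all genes were called higher and 51.4% lower. Their median was then -0.0025, beside -0.49 for all genes.

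Ndufs3, a subunit of the ubiquinone-binding module, lies at chr2:90894634-90904827 (GRCm38, minus strand). Its CPM was 223, 147 and 184 in normal phosphate replicates 1 to 3, and 294, 286 and 252 in the high phosphate libraries, with no overlap. The log2 fold change was 0.59 ± 0.17 (SE, adjusted p = 0.0185), from a mean of 185 ± 38.1 (SD, n = 3) to 277 ± 22.2. Of the 50-base stretches in its annotated transcripts, 17.9% also occur in other genes, among them Gm12251 and Kbtbd4, so its counts carry that uncertainty.

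Ndufs1, the largest subunit, holds several iron-sulfur clusters of the NADH-oxidizing tip and lies at chr1:63143596-63176833 on the minus strand. Its CPM was 410, 292 and 351 on the normal diet and 623, 489 and 413 on the high diet. The groups came within a few CPM of each other, and high phosphate replicate 1 stood above the rest. The log2 fold change was 0.53 ± 0.20 (SE, adjusted p = 0.0487), and on FPKM it was -0.02 (adjusted p = 0.928).

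Ndufv1, which binds NADH and the flavin, had CPM of 359, 244 and 308 on the normal diet and 462, 440 and 355 on the high diet. High phosphate replicate 3 fell just below normal phosphate replicate 1, and the log2 fold change of 0.46 ± 0.18 did not pass (adjusted p = 0.0605). Ndufv2, its iron-sulfur partner, had 556, 365 and 427 on the normal diet and 546, 525 and 536 on the high diet, so the single highest library was a normal one. Its log2 fold change was 0.25 ± 0.18 (adjusted p = 0.265).

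Ndufs7 and Ndufs8 carry the last clusters before ubiquinone. Ndufs7 had CPM of 312, 191 and 279 on the normal diet and 332, 355 and 308 on the high diet, and Ndufs8 had 174, 122 and 132 against 179, 177 and 160. In both genes normal phosphate replicate 1 lay inside the range of the high diet. Neither passed the test, at 0.35 ± 0.19 (adjusted p = 0.155) for Ndufs7 and 0.27 ± 0.15 (adjusted p = 0.163) for Ndufs8.

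**Figure D2:**
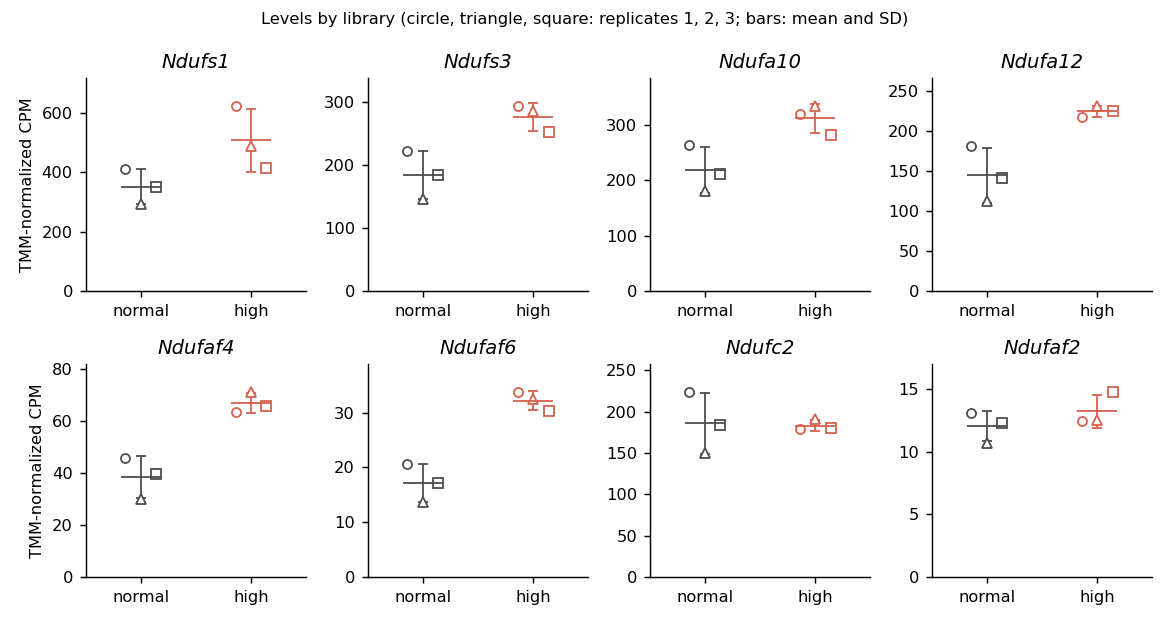
TMM-scaled CPM (y axes, each from 0) of 8 genes on both diets; markers are the libraries by replicate number, and bars give the mean and SD of 3 libraries. The diets are apart for Ndufs3, Ndufa10, Ndufa12, Ndufaf4 and Ndufaf6, nearly touch for Ndufs1, and overlap for Ndufc2 and Ndufaf2. Normal replicate 2 is the lowest point of each panel.

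Accessory subunits of the peripheral arm rose in 1 of 9 genes (11.1%), and those of the membrane arm in 2 of 19 (10.5%), below the 23% of all genes called higher. Medians were 0.28 and 0.29. With library size alone the medians were -0.18 and -0.17, with 1 and 6 genes called lower, where 51.4% of all genes were.

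Ndufa12 caps the peripheral arm at the place that its paralogue Ndufaf2 holds during assembly, and it lies at chr10:94198720-94221443 on the plus strand. Its CPM was 181, 112 and 141 on the normal diet and 218, 231 and 225 on the high diet. The high diet libraries agreed closely (225 ± 6.62, SD, n = 3) while the normal ones spread (145 ± 34.2). It had the largest log2 fold change of the 36 subunits, 0.64 ± 0.17 (SE, adjusted p = 0.0137). Gm15920 shares part of the 17.7% of its 50-base stretches that are not unique.

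Ndufa10 and Ndufb5 belong to the membrane arm. Ndufa10 (chr1:92439010-92473860, minus strand) had CPM of 264, 180 and 212 on the normal diet and 320, 334 and 283 on the high diet. Ndufb5 (chr3:32736990-32751566, plus strand) had 312, 197 and 231 against 358, 372 and 332. The diets did not overlap in either gene. Log2 fold changes were 0.51 ± 0.17 (adjusted p = 0.0297) for Ndufa10 and 0.52 ± 0.18 (adjusted p = 0.0395) for Ndufb5.

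Ndufs6, Ndufa8 and Ndufs5 had diets that did not overlap without passing the test. Ndufs6, a zinc-binding accessory subunit, had CPM of 171, 104 and 141 against 195, 187 and 177, a log2 fold change of 0.42 ± 0.17 (adjusted p = 0.0695). Ndufa8, a cysteine-rich subunit facing the intermembrane space, had 210, 124 and 163 against 218, 240 and 215, a change of 0.44 ± 0.19 (adjusted p = 0.0762). Ndufs5, of the same cysteine-rich kind, had 115, 73.0 and 104 against 128, 125 and 116, a change of 0.34 ± 0.16 (adjusted p = 0.106). In these 3 genes the gap between the highest normal and the lowest high library was small beside the spread within the normal diet.

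Ndufa9, near the junction of the arms, had CPM of 212, 150 and 178 against 247, 232 and 198, and Ndufb4 had 200, 122 and 165 against 199, 208 and 211. Both overlapped between diets, at adjusted p = 0.117 and 0.131. Ndufa4, the most abundant member per length, is now assigned to complex IV, cytochrome c oxidase, despite its name. Its CPM was 1116, 639 and 836 on the normal diet and 869, 932 and 964 on the high diet, which lay between normal replicates 1 and 3. Its log2 fold change was 0.09 ± 0.22 (adjusted p = 0.737), with a 95% interval from -0.39 to 0.58.

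The other 21 subunits, Ndufa4 included, overlapped between diets without exception and none passed the test. Their log2 fold changes ran from -0.02 (Ndufc2) to 0.34 (Ndufa3), with adjusted p from 0.157 to 0.922. Ndufc2, of the membrane arm, had CPM of 224, 150 and 184 on the normal diet and 179, 191 and 180 on the high diet. It was the 1 subunit with a negative value by TMM, and its 95% interval ran from -0.37 to 0.33.

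Over all 36 subunits, 9 had diets that did not overlap, with the high diet above in all 9, which is 25% of them. Among all genes tested 62.4% did not overlap, 30.3% with the high diet above and 32.1% with it below.

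Of the assembly factors 4 of 7 rose (57.1%, beside 23% of all genes). In 5 of 7 (71.4%) the diets did not overlap, with the high diet above in each. Among all genes 62.4% did not overlap, 30.3% with the high diet above. Whether the share called differs between assembly factors and subunits was not tested. With library size alone, and on FPKM, only Ndufaf6 of the 7 was called, and it was higher. Among all genes 5.72% were higher and 51.4% lower with library size alone, and 4.74% and 37% on log2(FPKM + 1).

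Ndufaf6, which acts early in assembly, lies at chr4:11051045-11076205 on the minus strand. Its CPM was 20.6, 13.7 and 17.1 on the normal diet and 33.7, 32.4 and 30.3 on the high diet. All high diet libraries lay well above all normal ones, at 32.2 ± 1.72 (SD, n = 3) against 17.1 ± 3.47. Its log2 fold change was 0.91 ± 0.15 (SE, adjusted p = 0.00149), a 1.88-fold difference and the largest of the 43 genes. It stayed called in 16 of 16 other settings, with values from 0.42 to 1.07 and adjusted p up to 0.0422.

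Ndufaf4 and Ndufaf3 are partners in building the ubiquinone-binding module. Ndufaf4 (chr4:24898083-24905001, plus strand) had CPM of 45.7, 30.0 and 39.5 on the normal diet and 63.3, 71.0 and 65.8 on the high diet, far apart. Its log2 fold change was 0.80 ± 0.15 (adjusted p = 0.00258), but on FPKM it was -0.04 (adjusted p = 0.895), and its ratio of FPKM to the share of the library total varied by 1.57-fold between libraries. Ndufaf3 had 16.5, 13.2 and 13.7 against 18.1, 18.1 and 17.9, with no overlap. Its change of 0.32 ± 0.12 just missed the threshold (adjusted p = 0.0503).

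Ndufaf1 is part of the membrane-arm assembly complex that also holds Ecsit, Acad9 and Tmem126b, and lies at chr2:119655446-119662827 on the minus strand. Its CPM was 39.3, 31.5 and 32.5 on the normal diet and 58.7, 50.7 and 43.0 on the high diet, without overlap. Its log2 fold change was 0.56 ± 0.14 (adjusted p = 0.00902). On library size alone it was 0.08 (adjusted p = 0.558).

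Ndufaf5 and Ndufaf7 modify arginines of core subunits. Ndufaf5 (chr2:140170649-140203689, plus strand) had CPM of 53.5, 34.0 and 43.1 against 67.1, 54.98 and 61.4. The gap between the diets was narrow, and the change of 0.49 ± 0.16 passed (adjusted p = 0.0297). Ndufaf7 had 24.2, 18.8 and 21.2 against 26.4, 24.4 and 23.0, overlapping between diets, at 0.20 ± 0.12 (adjusted p = 0.194).

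Ndufaf2, the paralogue of Ndufa12, had CPM of 13.1, 10.7 and 12.3 on the normal diet and 12.4, 12.5 and 14.7 on the high diet. The diets overlapped, and the change was 0.13 ± 0.13 (adjusted p = 0.414) where that of Ndufa12 was 0.64. The difference between these 2 changes was not tested. B230220B15Rik on the opposite strand covers 65.6% of the annotated exonic bases of Ndufaf2, and with no strand setting in the sources used here, reads of both genes cannot be told apart.

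Normal phosphate replicate 2 was the lowest of the 6 libraries in all 43 members. Over all genes tested it was the lowest in 31.7% and the highest in 31.5%. Normal phosphate replicate 1 was the highest normal library in all 43 members and the highest of all 6 in 13, each a subunit. The number of subunits called moved with the library left out, for libraries of both diets. It was 22 without normal phosphate replicate 1 (22.2% of all genes called higher there), 4 without normal replicate 2 (19.6%), and 2 without normal replicate 3 (19.5%). It was 1 without high replicate 1 (17.4%), 1 without high replicate 2 (18.6%) and 4 without high replicate 3 (18%). Ndufa12 was among the calls each time. The assembly factors gave 3 to 5 calls, with Ndufaf1, Ndufaf4 and Ndufaf6 among them each time.

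**Figure D3:**
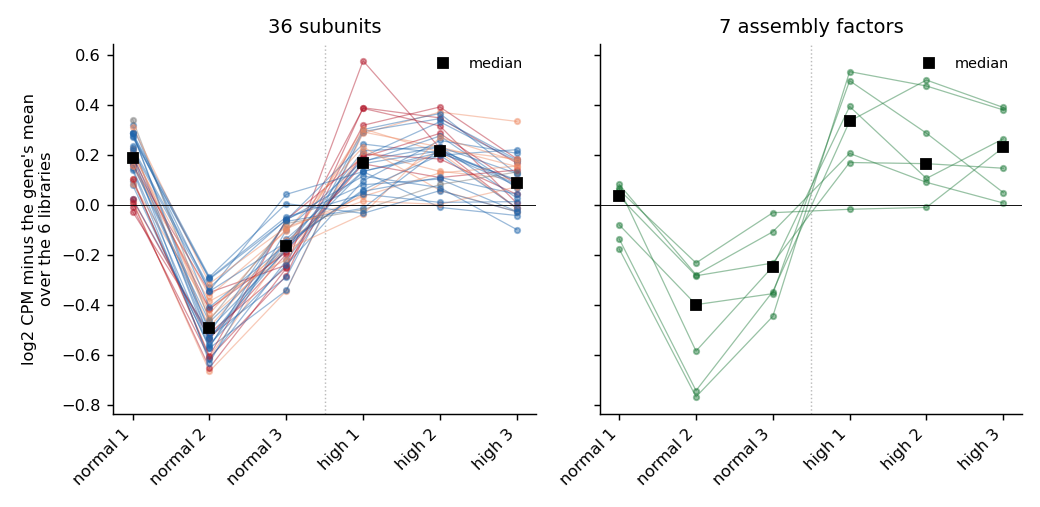
Log2 CPM of each gene minus its mean over the 6 libraries (y axis) by library (x axis); each line is 1 gene, coloured by role as in the plot of fold changes, and squares are medians. The lines join libraries in no order; normal replicate 2 is the lowest library of every line.

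As shares of the library total, which is the scale of library size alone, the subunits took 1.20%, 0.893% and 1.01% of all counts in normal replicates 1 to 3 and 0.881%, 0.978% and 0.918% in the high diet libraries, so the diets overlapped. The assembly factors took 0.0234%, 0.0195% and 0.0207% against 0.0222%, 0.0230% and 0.0226%, which overlapped as well. A difference between classes inside a library does not depend on the scaling between libraries. The mean log2 CPM of the subunits minus that of the assembly factors was 3.26, 3.05 and 3.16 on the normal diet and 2.93, 3.03 and 2.94 on the high diet. The diets did not overlap, but normal replicate 2 and high replicate 2 were close to each other. The mean difference was -0.19, and it ran from -0.24 to -0.14 when a library was left out. On log2(FPKM + 1) it was -0.22. These are descriptions over 36 and 7 genes, with no test.

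**Figure D4:**
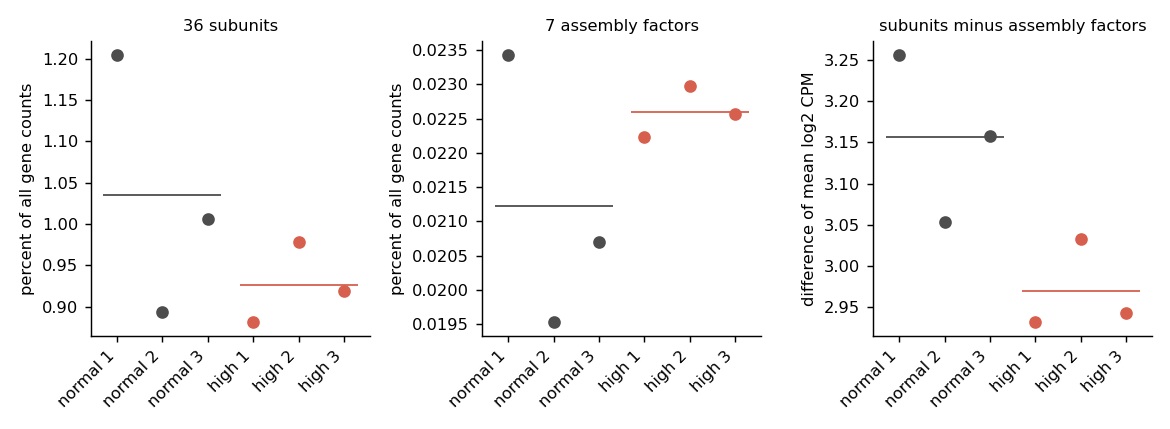
Percent of all gene counts in the 36 subunits and in the 7 assembly factors, and the mean log2 CPM of subunits minus assembly factors, for each library (points) with the mean of each diet (lines). The axes do not start at 0; both shares overlap between diets, and the difference is 2.93 to 3.03 on the high diet and 3.05 to 3.26 on the normal diet.

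Core and membrane arm subunits were compared in the same way, with no test. The mean log2 CPM of the 7 core genes minus that of the 19 membrane arm accessory genes was 0.69, 0.77 and 0.75 on the normal diet and 1.01, 0.90 and 0.85 on the high diet, with no overlap. In CPM 62.4% of all genes tested did not overlap between diets, and no such share was taken on the scale of subunit counts. As percent of all subunit counts, 7 of the 36 subunits were higher in every high diet library, 8 were lower and 21 overlapped. Those higher included Ndufs3, Ndufs6, Ndufa8, Ndufa10, Ndufa12 and Ndufb5. Those lower were Ndufa2 and 7 of the membrane arm, Ndufa1, Ndufa11, Ndufa13, Ndufb2, Ndufb3, Ndufb11 and Ndufc2. Ndufb2 (5628 bases) apart, these lower genes have from 419 (Ndufa1) to 1251 (Ndufa13) annotated exonic bases. Core genes other than Ndufs8 (1291) have at least 1718 (Ndufs7). Whether the shares go with the arm or with gene length was not tested. Ndufs3 took 2.03%, 2.11% and 2.11% of subunit counts on the normal diet and 2.65%, 2.54% and 2.42% on the high diet, and Ndufc2 2.04%, 2.16% and 2.11% against 1.61%, 1.70% and 1.73%.

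No single subunit passed a test of such a difference. With the summed subunit counts of each library as the scale in edgeR, a fit chosen after the data were seen, 0 of 36 subunits were called in either direction, while 5.77% of all genes were called higher and 30.2% lower. Only Ndufa12 was under 0.05 before adjustment (0.34 ± 0.16, adjusted p = 0.104), and at the other end Ndufc2 stood at -0.33 ± 0.16 (adjusted p = 0.118). The subunits' median is near 0 in that fit by construction. Its standard errors draw in part on the spread of all genes tested, so the lack of calls does not exclude the differences in share. Ndufs3 had 0.28 ± 0.16 (adjusted p = 0.173) in that edgeR fit. Its shares of subunit counts were 2.09% ± 0.04 (SD) on the normal diet and 2.53% ± 0.12 on the high diet. Ndufaf6 was called higher than the summed subunits, by 0.60 ± 0.23 (adjusted p = 0.0377), and Ndufaf4 missed the threshold at 0.49 ± 0.20 (adjusted p = 0.0515). The call of Ndufaf6 was lost without normal replicate 3 or without any 1 of the high replicates. No other tool was run with this scale.

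**Figure D5:**
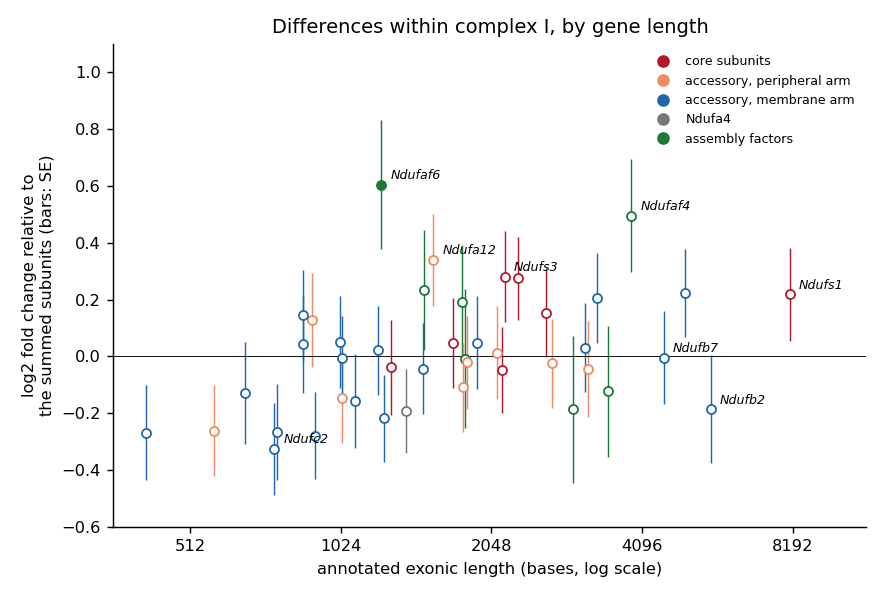
Log2 fold change relative to the summed subunit counts (y axis, bars show the standard error) against annotated exonic length (x axis, log scale) for the 43 genes. The 1 filled point, Ndufaf6, passed an adjusted p under 0.05; the subunits run from -0.33 (Ndufc2) to 0.34 (Ndufa12).

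Subunit genes with more annotated exonic bases tended to have the larger values. That length merges the exons of all annotated transcripts of a gene, so it can exceed the length of the transcripts expressed here. The length of the expressed transcripts was not measured, and its relation to the change was not tested. Across the 36 subunits, which share the same 6 libraries, log2 exonic length and log2 fold change had a Pearson r of 0.51 and a Spearman rho of 0.48, against 0.00 and -0.02 over 15303 genes. After an offset per library that removed the trend with length over all genes, the values were 0.63 and 0.63, and 9 subunits and 5 assembly factors were called higher, beside 27.3% of all genes. With a division at 1500 annotated exonic bases, chosen after the data were seen, 0 of 18 subunits below it were called higher by TMM. At or above it 6 of 18 were, beside 23% of all genes. Mean level had little relation to the change (r = 0.10, rho = 0.09).

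Other genes of the pathway were read from a list of assembly factors and relatives without a matching symbol, of which 12 were in the table. Of these, 5 rose (41.7%, beside 23% of all genes), 1 fell, where 26.3% of all genes did, and the other 6 did not pass the test. Ecsit, the partner of Ndufaf1, had CPM of 75.7, 51.2 and 65.3 against 112, 104 and 103, a change of 0.73 ± 0.14 (adjusted p = 0.00335), but 21.9% of its 50-base stretches also occur in other genes. Tmem186, of the same assembly complex, changed by 0.61 (adjusted p = 0.00274), and Timmdc1, a membrane assembly factor, by 0.52 (adjusted p = 0.00539). Atp5sl, an assembly factor of the distal membrane arm, changed by 0.64 (adjusted p = 0.00533), and Nubpl, an iron-sulfur delivery protein, by 0.60 (adjusted p = 0.0285). Acad9 at 0.21 and Tmem126b at 0.23, also of that complex, did not pass (adjusted p = 0.176 and 0.108). Neither did Ndufab1, the acyl carrier protein of complex I, at 0.25 (adjusted p = 0.215). Ndufa4l2, the paralogue of Ndufa4, fell from 15.1, 18.7 and 15.4 to 8.89, 11.8 and 12.5 CPM, by 0.57 on the log2 scale (adjusted p = 0.0146). With library size alone none of the 12 was called higher and 2 were lower, Ndufa4l2 at -1.05 and Foxred1 at -0.40. Among all genes 5.72% were higher there and 51.4% lower.

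The nuclear subunits of complexes II to V gave a comparison within the respiratory chain. Of 40 genes 1 rose (Atp5g2, 0.51, adjusted p = 0.0181), 1 fell (Cox8a, -0.67, adjusted p = 0.00191) and 38 did not pass. Among all genes 23% rose and 26.3% fell. The median of the 40 was 0.24 beside 0.29 for the complex I subunits. Scaled by library size alone, 0 of the 40 were higher and 12 lower, beside 5.72% and 51.4% of all genes. Their median was then -0.23, beside -0.18 for the complex I subunits. In each library, the mean log2 CPM of complex I subunits minus that of complexes II to V was -1.06, -1.07 and -1.03 on the normal diet and -0.995, -0.987 and -0.926 on the high diet. The diets did not overlap, by a margin that is small in size, 0.08 between the means.

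Promoter sequence was read for 38 of the 43 members from RefSeq windows on GRCm38.p6, from 250 bases before to 50 after the RefSeq start of the gene. Both strands were searched for motifs of factors known for mitochondrial genes. The motif of nuclear respiratory factor NRF-1, written here as GCGC, any base and TGCGC, was in 9 members (23.7%) and in 5.19% of 27025 genes. AANATGGCG, the motif of YY1, was in 7 members (18.4%, beside 2.76%). CCGGAAGT of the ETS family was in 1 member (2.63%, beside 4.31%), and TNAAGGTCA of the oestrogen-related receptors in 1 (2.63%, beside 1.43%). Of the 7 called members with a window, 2 held the NRF-1 motif, Ndufaf4 and Ndufaf5, 1 held the ETS motif, Ndufs3, and none held the others. NRF-1 matches were thus found in members that rose and in members that did not, such as Ndufb4.

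The following stretches run from 200 bases before to 10 after the RefSeq start, with capitals for motif matches. They show the promoter of the called assembly factor Ndufaf4 (chr4:24897883-24898092, plus strand), where the NRF-1 letters read the same on both strands, and of the called core subunit Ndufs3 (chr2:90904712-90904921, minus strand), where an ETS match lies at the start. Ndufa12 (chr10:94198835-94199044, plus strand), the subunit with the largest change, has no match, and Ndufb4 (chr16:37654359-37654568, minus strand), which was not called, has 3 NRF-1 matches and the TNAAGGTCA match, 57 bases before the start.
Ndufaf4: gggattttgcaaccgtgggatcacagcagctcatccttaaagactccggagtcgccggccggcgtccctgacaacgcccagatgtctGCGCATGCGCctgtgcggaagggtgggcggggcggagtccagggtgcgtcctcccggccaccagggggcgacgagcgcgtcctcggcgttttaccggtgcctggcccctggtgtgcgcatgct
Ndufs3: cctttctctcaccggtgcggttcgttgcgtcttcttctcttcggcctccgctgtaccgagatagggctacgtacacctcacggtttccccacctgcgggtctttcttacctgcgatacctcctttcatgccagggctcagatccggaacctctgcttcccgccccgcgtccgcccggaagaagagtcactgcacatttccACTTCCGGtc
Ndufa12: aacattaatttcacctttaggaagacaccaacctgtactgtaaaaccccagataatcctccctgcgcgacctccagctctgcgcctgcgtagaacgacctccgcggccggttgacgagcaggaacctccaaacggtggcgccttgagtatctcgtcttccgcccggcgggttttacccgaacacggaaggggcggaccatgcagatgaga
Ndufb4: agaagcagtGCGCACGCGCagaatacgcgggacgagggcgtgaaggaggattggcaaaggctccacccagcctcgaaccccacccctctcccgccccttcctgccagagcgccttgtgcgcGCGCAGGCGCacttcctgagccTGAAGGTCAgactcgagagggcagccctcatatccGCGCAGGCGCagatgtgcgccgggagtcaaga
A match is a description of letters in these windows, and binding was not measured. For Ndufs3, Ndufa12 and Ndufb4 the RefSeq start lies inside the span that GENCODE gives the gene. Part of the printed stretch of Ndufs3 and Ndufb4, and all of that of Ndufa12, falls within that span. Windows of Ndufb9, Ndufaf6, Ndufs1, Ndufa2 and 1 other member were not used here.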

How the data were processed

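Total RNA of 6 gastrocnemius libraries was sequenced, and the members and gene lists were chosen with earlier results of these data known. The deposited table of raw counts (47967 genes) and the deposited FPKM table (38011 genes) were made by the authors. The submitters' processing notes name Trim Galore 0.4.1, HISAT2 2.0.1, featureCounts 1.4.6, DESeq2 1.6.3 and GRCm38. Strand setting and FPKM tool: not given in the sources used here.

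Counts were tested with edgeR 4.0.16 (R 4.3.3; TMM, filterByExpr, robust quasi-likelihood F test, Benjamini-Hochberg over 15347 genes, called at an adjusted p under 0.05), which all 43 members entered. DESeq2 1.42.0 and limma 3.58.1 on log2(FPKM + 1), which understates changes of low genes, were alternatives, as were other scalings and filters, a length offset, a replicate term and leaving out each library. A fit scaled to the summed subunit counts was added after the data were seen. The fit was tested on simulated data. Libraries within a diet differed by more than sampling noise. Per-library values were given for core subunits, the 8 other subunits with the smallest p, assembly factors and the extremes of mean FPKM; Ndufc2 and the members named for their share of subunit counts were chosen after their values were seen. The values of 1 member are counted in the totals and not reported here by name. Coordinates, lengths and overlaps come from GENCODE on GRCm38, with 47601 genes matched. Ndufaf8, Ndufb1-ps, Coa1, Dmac1 and Dmac2 were not analysed here under these symbols.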

Additional observations from a re-analysis of the deposited data

How the results depend on the processing

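With library size alone, subunits called higher went from 6 to 0 and lower from 0 to 7, assembly factors called higher from 4 to 1, their medians from 0.29 to -0.18 and from 0.49 to 0.027, and all genes called from 3528 to 878 higher and from 4035 to 7886 lower. With FPKM and limma, on log2(FPKM + 1), log2(FPKM + 0.1) or without a filter, 0 subunits and 1 assembly factor were higher, 5, 5 and 0 subunits were lower, the subunit medians were -0.15, -0.15 and -0.15, the assembly factor medians -0.020, -0.023 and -0.020, and 748, 760 and 566 genes were higher. The cause was not tested. Called lower with library size alone, against a positive value by TMM, were Ndufa1 (-0.43), Ndufa13 (-0.37), Ndufa2 (-0.42), Ndufb11 (-0.44), Ndufb2 (-0.35) and Ndufb3 (-0.42); Ndufc2 was the seventh. On log2(FPKM + 1) and log2(FPKM + 0.1) these were Ndufa1 (-0.40 in both), Ndufb11 (-0.40 in both), Ndufb3 (-0.40 in both) and Ndufb4 (-0.69 in both). Ndufaf4 (-0.042, -0.041 and -0.042) and Ndufs1 (-0.022 in each) were negative and not called in the 3 FPKM settings. Negative values stood in 30 of 36 subunits with library size alone and in 28 on FPKM.

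Leaving out 1 library gave 1 to 22 subunits and 3 to 5 assembly factors higher, medians of 0.14 to 0.47 and 0.34 to 0.67, and, relative to the summed subunits, 0 to 1 subunits higher, 0 to 1 lower and 0 to 2 assembly factors higher. Without normal replicate 1 the subunits called relative to the sum were Ndufa12 (0.35) and Ndufc2 (-0.35). DESeq2, no filter, the length offset and an adjusted p under 0.1 each gave 9 subunits higher, and the filter of 1 CPM gave 5. Subunits without Ndufa4, added after the data were seen, gave 6.

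The replicate numbers did not pair the libraries: deviations of same-numbered libraries from their diet means correlated at -0.021, 0.022 and 0.019, and not every library correlated best with its own number. With replicate number as a block, 7 subunits and 4 assembly factors were higher, with medians of 0.31 and 0.51, and relative to the summed subunits 0 assembly factors were.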
